A study of Rattus norvegicus with 96 samples.

Results

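The microRNAs of visceral adipose tissue (VAT) were compared with those of the kidney of the same rats. Of the 96 samples of the series, 24 were used: 12 small RNA libraries of VAT and 12 of kidney, 1 of each per rat, joined by the animal number in the labels and in the headings of the count columns. For VAT 64 microRNAs are listed, and for kidney 58. The 51 microRNAs listed in both were tested, 13 are listed in the VAT table and not in the kidney table, and 7 in the kidney table and not in the VAT table. The study set a whole egg-based diet against a casein-based one. The difference between tissues is taken here over both diets. All 12 rats were male Sprague Dawley rats, an outbred laboratory strain, obtained at 6 weeks of age. After a period on chow and then fasting and refeeding training on the diets, 6 rats were fed the whole egg-based diet and 6 the casein-based diet for 2 weeks, and both tissues were taken at the end, after an overnight fast. Each tissue therefore holds the same 12 rats, and diet does not separate VAT from kidney. The labels call the fat "Adipose", and by the study's methods it is the epididymal depot, so other visceral depots are not covered. Each library is a piece of whole tissue, so fewer cells of a type and less RNA per cell cannot be told apart in any value given here.

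MicroRNAs are short RNAs that guide Argonaute proteins to partly matching sites in messenger RNAs, which are then translated less or degraded. Pairing depends mostly on the seed, the stretch next to the 5′ end of the microRNA, so that members of a family with the same seed can bind overlapping sets of messengers. miR-10a and miR-10b are made from Hox gene clusters and are abundant in organs of the trunk. miR-192 and miR-194 are microRNAs of liver, gut and renal epithelium, the miR-200 family marks epithelium, miR-126a endothelium, miR-145 smooth muscle and other mesenchymal cells, and miR-148a and miR-146b have been described in adipocytes.

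The mature sequences of the microRNAs on which the comparison turns are given 5′ to 3′ as RefSeq holds them for rat build GRCr8, with the seed (bases 2 to 8) in capitals. Of the 71 microRNAs listed in either table, 63 were matched to a RefSeq sequence by name. The first set holds the most abundant microRNAs of both tissues and those of the largest differences.
miR-10b-5p: cCCUGUAGaaccgaauuugugu
miR-10a-5p: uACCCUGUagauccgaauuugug
miR-192-5p: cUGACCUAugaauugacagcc
miR-148a-3p: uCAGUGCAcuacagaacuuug
The miR-10b entry starts 2 bases further in than the miR-10a entry, so that the capitals mark different letters in them. Laid side by side, they match in 20 of 21 bases and differ by U12A (miR-10a base first, counted from the 5′ end of miR-10a). The second set shows microRNAs that share a seed and yet differ in how they divide between VAT and kidney.
miR-146b-5p: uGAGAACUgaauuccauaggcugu
miR-146a-5p: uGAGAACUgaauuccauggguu
let-7i-5p: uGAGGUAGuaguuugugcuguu
let-7g-5p: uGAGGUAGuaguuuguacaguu
miR-195-5p: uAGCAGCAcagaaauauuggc
miR-16-5p: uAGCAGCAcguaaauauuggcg
The third set shows the miR-30 members that were all lower in VAT.
miR-30a-5p: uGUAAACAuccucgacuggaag
miR-30c-5p: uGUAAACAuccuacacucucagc
miR-30e-5p: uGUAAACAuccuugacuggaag
Of 42 different seeds, 12 were shared by more than 1 of the matched microRNAs, and these held 33 of them.

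The listed counts summed to between 44390 and 1536300 per VAT library (median 930919) and to between 187169 and 1345947 per kidney library (median 484934). They are sums over the listed microRNAs and not the full depth of the libraries. The VAT library of rat 12 was by far the shallowest, at 44390 counts against 478855 in the next, and it held the highest level of 16 of the 64 listed VAT microRNAs. A count of 0 stood at 12 of 768 VAT values and 11 of 696 kidney values, while the smallest count above 0 was 12 to 343 in VAT libraries and 47 to 205 in kidney libraries. A listed 0 was therefore not read as absence, but it entered the main fit, the ranges and the counts of rats as a value of 0.

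The kidney libraries stood apart in 2 sets of 6. The first principal component took 65.2% of the variance of the kidney libraries and put rats 3, 4, 6, 8, 9 and 10 on one side and rats 1, 2, 5, 7, 11 and 12 on the other, with 3 egg-fed and 3 casein-fed rats on each side. In the liver table of the same series, the first component (70.8% of the variance) split the same rats in the same way. The labels name no batch, and nothing given there tells what the sets are. In kidney, 21 of the 58 listed microRNAs did not overlap between the sets, which were drawn from these same kidney counts. Adjusted p-values within a set are therefore descriptive. Values within each set are given beside the results that they change, and all values within them come from fits added after the split was seen. The VAT libraries parted otherwise. Their first component (44.7% of the variance) put rats 1, 2, 3, 4, 5 and 8 on one side and rats 6, 7, 9, 10, 11 and 12 on the other. Scores ran from -5.22 to -1.10 and from 0.38 to 11.6, with rat 12 the furthest out. On the first side rats 1 and 3 were casein-fed, and on the second rats 10 and 12 were egg-fed. No fits were run within these sides. They were drawn from VAT counts that include the microRNAs given below, so levels that part along them are descriptive. How many listed VAT microRNAs part without overlap between the sides was not counted.

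By their medians, markers of other tissues were low in both tables. miR-122-5p, the liver microRNA, took a median of 0.179% of the listed counts in VAT and 0.201% in kidney, against 35.3% in the liver table. miR-9a-5p, a neural microRNA, took 0.176% in VAT and 0.104% in kidney, against 23.3% in the prefrontal cortex table. Single libraries held more. miR-122-5p took 1.14%, 1.48% and 4.45% in kidney of rats 1, 7 and 12. In VAT of rat 12 miR-122-5p took 1.67% and miR-9a-5p 1.83%. miR-486, which red blood cells are rich in, took 0.520% in VAT and is not in the kidney table. The other red cell markers looked for (miR-451-5p and miR-144), those of leukocytes (miR-142, miR-223-3p, miR-150-5p and miR-155-5p), those of striated muscle (miR-1-3p, miR-133, miR-206-3p and miR-499-5p) and the other neural markers (miR-124-3p, miR-128-3p and miR-138-5p) are in neither table, nor is miR-143-3p, the partner of miR-145. miR-1b, whose name sets it beside the muscle microRNA miR-1, is listed for VAT, with a median of 270 CPM and at most 702 CPM. Of a list of 16 kidney epithelial microRNAs, miR-192-5p, miR-194-5p, miR-200a-3p and miR-200b-3p are among those listed for kidney. Another 7 are in neither table, among them the epithelial markers miR-200c-3p, miR-141-3p and miR-429.

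VAT and kidney differed in 29 of the 51 shared microRNAs, in both directions, with miR-148a-3p and miR-192-5p at the ends. At an adjusted p under 0.05 (edgeR's quasi-likelihood test with the rat as a block, Benjamini-Hochberg adjustment over 51), 15 microRNAs (29.4% of those tested) were higher in VAT and 14 (27.5%) were lower, in all 56.9%. The other 22 did not pass. The median log2 fold change of all 51 was -0.08. Of those called, 9 were higher by at least 2-fold and 5 lower by at least 2-fold. All 12 rats had the higher level in VAT for 9 microRNAs and the lower level in VAT for 6. The ranges of VAT and kidney did not overlap for 5 of the 51 (9.8%), which were miR-148a-3p and miR-146b-5p, higher in VAT, and miR-192-5p, miR-30a-5p and miR-30e-5p, lower in VAT. Without scaling factors the same fit called 12 higher and 17 lower, so that 41.4% of the calls were higher in VAT, against 51.7% with them. That setting moved the log2 fold changes by a median of -0.26.

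**Figure D1:**
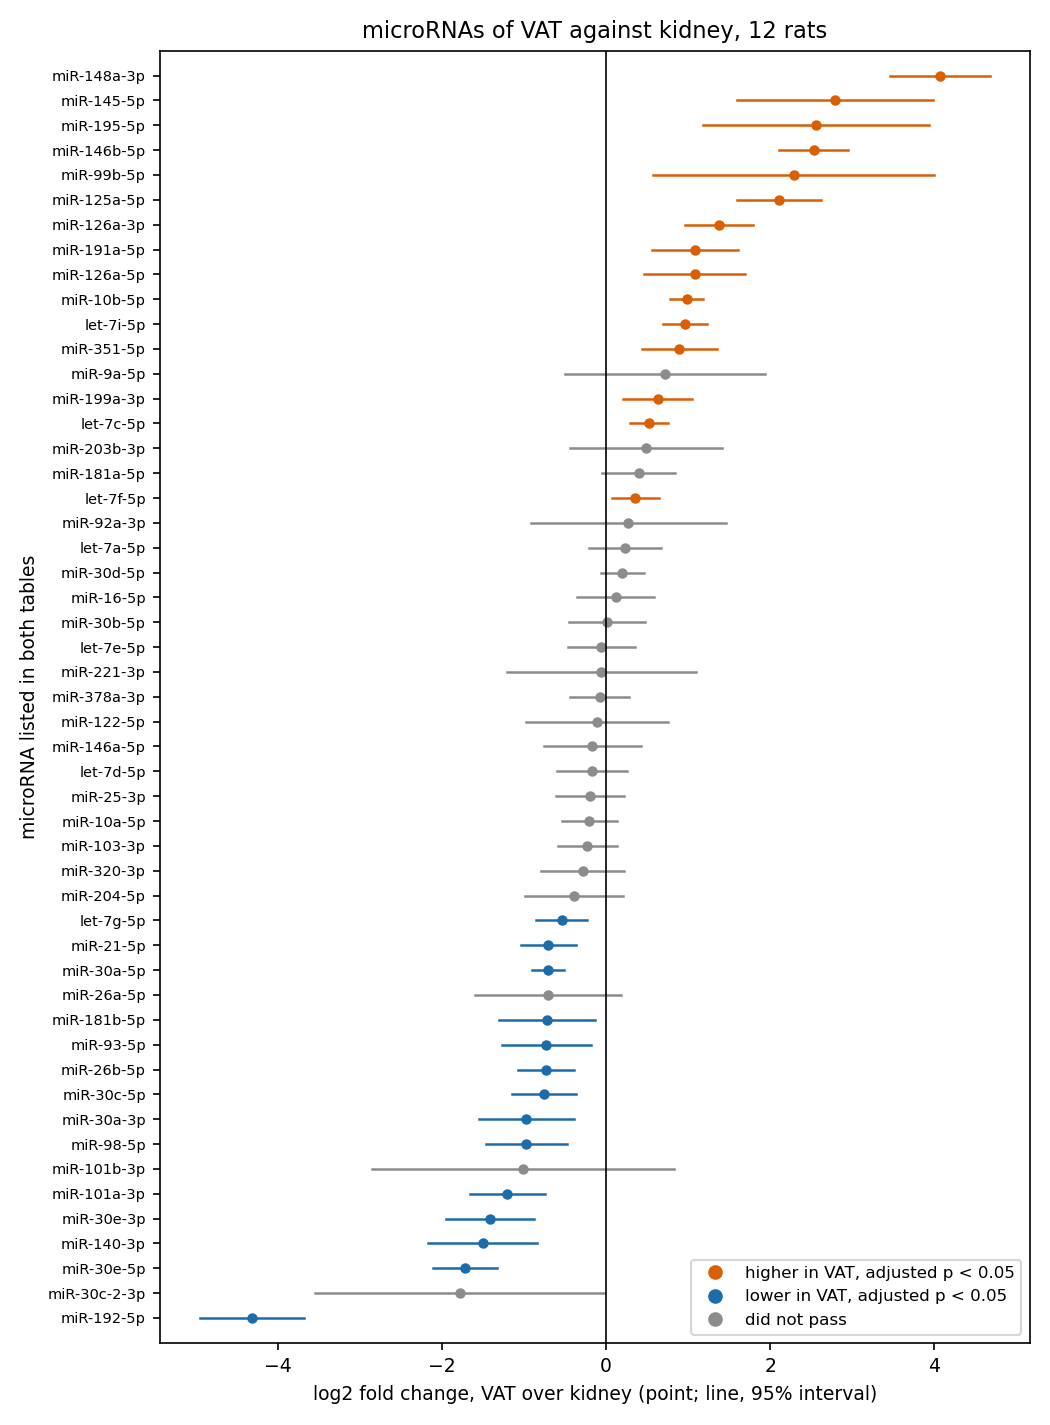
The log2 fold change of VAT over kidney (x axis) is plotted for each of the 51 microRNAs listed in both tables (y axis), as a point with its 95% interval, for 12 rats. The 15 microRNAs higher in VAT lie right of 0 with miR-148a-3p at 4.07, the 14 lower ones lie left of it with miR-192-5p at -4.32, and the 22 in grey did not pass.

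miR-10b-5p was the most abundant microRNA in both tissues and the largest single share of the VAT counts. It took 31.5%, 50.1% and 56.5% of the listed counts in VAT (lowest, median and highest of 12 rats), against 22.1%, 29.0% and 35.8% in kidney. The share was higher in VAT in each of the 12 rats, although the ranges overlapped. On the scale of CPM, counts scaled to the library total and a TMM factor, which is used from here on, miR-10b-5p was 1.97-fold higher in VAT (log2 fold change 0.98, SE 0.09, edgeR adjusted p = 4.25e-07). It was higher in both sets of rats, by 1.23 on the log2 scale in rats 3, 4, 6, 8, 9 and 10 and by 1.04 in the others. RefSeq places it at chr3:80035886-80035907 of GRCr8, plus strand, inside the gene Hoxd4. The TMM factor of the VAT library of rat 9 was 0.530, against 0.807 to 1.15 in the other VAT libraries. It raises the CPM of that library, where miR-10b-5p stood at 1064120 CPM, so CPM is a relative scale here. The highest VAT values given below for miR-148a-3p, miR-125a-5p, miR-191a-5p, miR-125b-5p, miR-21-5p, let-7f-5p and let-7g-5p are also those of rat 9. Without rat 9 the log2 fold change of miR-10b-5p was 0.94.

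miR-10a-5p, the second most abundant microRNA in both tissues, took 11.2%, 13.3% and 16.1% of the listed counts in VAT, against 12.9%, 17.3% and 32.2% in kidney. Its ranges overlapped widely and it did not pass (log2 fold change -0.20, SE 0.16, edgeR adjusted p = 0.305). Within the sets its difference had opposite signs, at -0.44 in rats 3, 4, 6, 8, 9 and 10 (edgeR adjusted p = 0.00858) and 0.34 in the others (adjusted p = 0.0884), and the kidney levels of the sets did not overlap (176786 to 373693 CPM against 101225 to 140767 CPM). The ratio of miR-10b to miR-10a within a library, which needs no scaling, was 2.12, 3.78 and 4.68 in VAT, against 1.05, 1.63 and 2.43 in kidney. It was higher in VAT in all 12 rats, by 1.18 ± 0.56 on the log2 scale (SD over rats), and it is given with no test because the pair was chosen after the values were seen. In the liver table the order was the opposite, with a median share of 1.26% for miR-10b and 11.1% for miR-10a, and it was the same as in VAT and kidney in the prefrontal cortex table, with 1.5% for miR-10b and 0.610% for miR-10a.

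**Figure D2:**
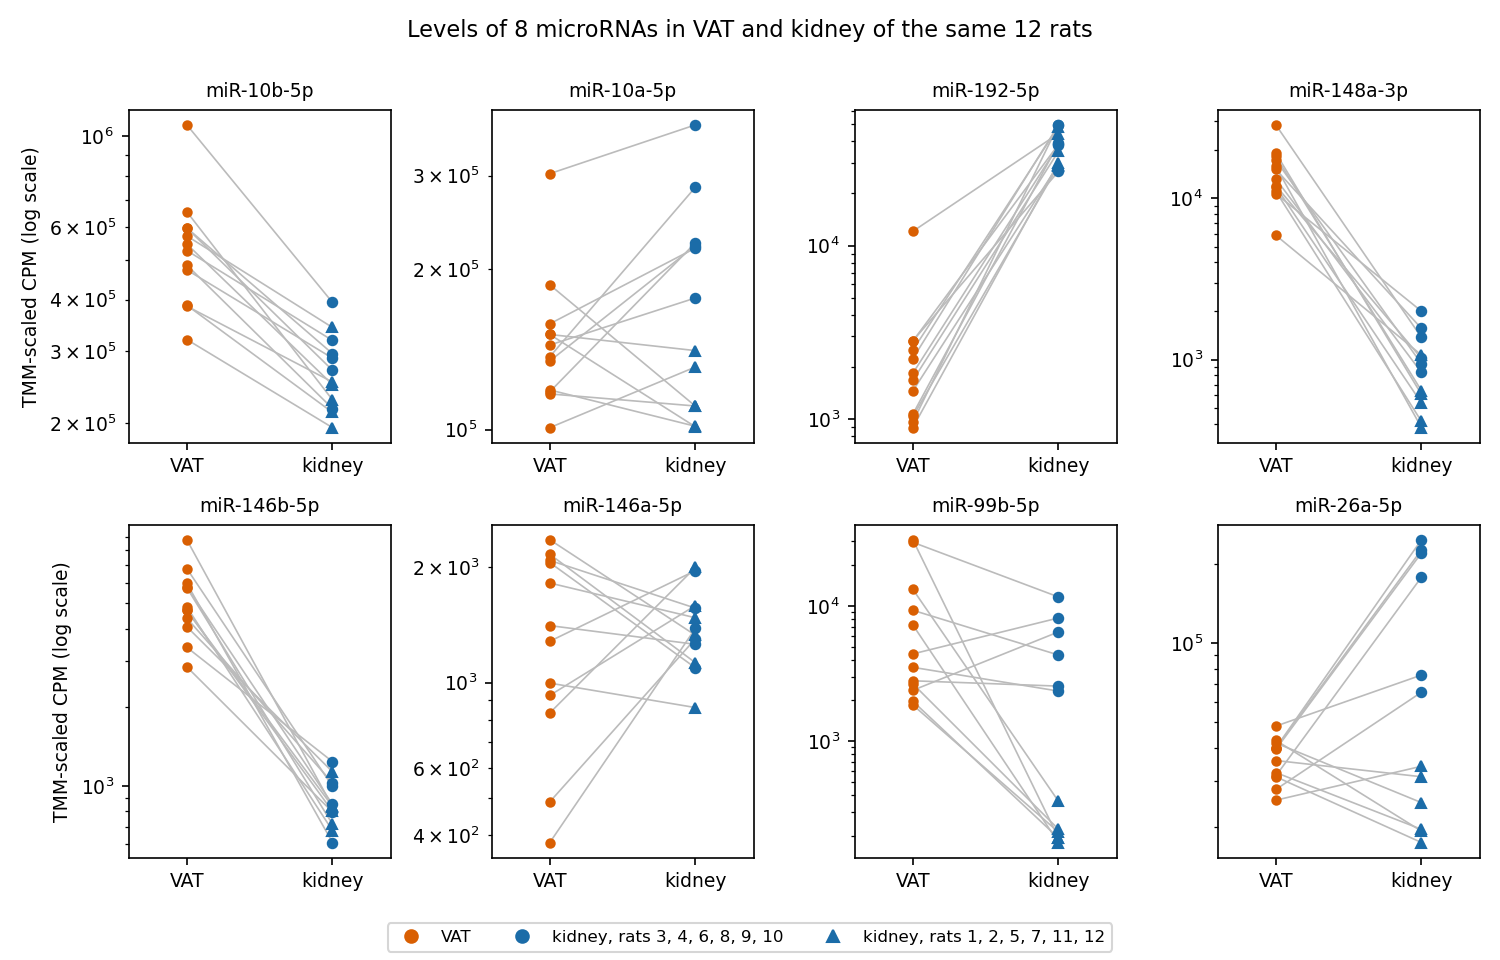
TMM-scaled CPM on a log scale is plotted for 8 microRNAs in VAT (left of each panel) and kidney (right), with a line joining the libraries of 1 rat and 2 marker shapes for the 2 sets of kidney libraries. miR-10b-5p, miR-148a-3p and miR-146b-5p fall along every line from VAT to kidney, miR-192-5p climbs along every line, and in miR-99b-5p and miR-26a-5p the 2 sets of kidney libraries lie apart.

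miR-192-5p, a microRNA of renal and hepatic epithelium, had the largest difference of all 51 and was lower in VAT. It had 896, 1758 and 12093 CPM in VAT, against 26768, 38072 and 49627 CPM in kidney. The ranges did not overlap. The log2 fold change was -4.32 (SE 0.30, edgeR adjusted p = 1.61e-08), or 19.9-fold lower. The highest VAT value is that of rat 12, the shallowest library, and the next was 2831 CPM. Without rat 12 the log2 fold change was -4.42. Within the 2 sets of rats it was -4.26 and -4.05. As a share of listed counts, miR-192-5p took a median of 0.145% in VAT and 3.99% in kidney, with 11.7% in the liver table and 0.261% in the prefrontal cortex table.

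The neighbour of miR-192 is listed for kidney and not for VAT, and is in the liver table as well. RefSeq places miR-192-5p at chr1:212994232-212994252 and miR-194-5p at chr1:212994038-212994059 (GRCr8, plus strand), within 215 bases of each other, and miR-194-5p has a second copy at chr13:99382730-99382751 inside the gene Iars2. In kidney miR-194-5p had 0, 413 and 1066 CPM and it is not listed for VAT. Over the list of kidney epithelial microRNAs, 4 of 16 were tested: miR-10b-5p was higher in VAT, miR-192-5p was lower, and miR-10a-5p and miR-204-5p did not pass. miR-194-5p, miR-196b-5p, miR-200a-3p and miR-200b-3p are listed for kidney alone, miR-203a-3p for VAT alone, and 7 of the list are in neither table.

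miR-148a-3p was the microRNA most raised in VAT. It had 5886, 14100 and 28446 CPM in VAT, against 378, 886 and 1991 CPM in kidney. The ranges did not overlap. The fitted difference was 16.8-fold (log2 fold change 4.07, SE 0.29, edgeR adjusted p = 1.61e-08), and it was 3.83 and 4.64 on the log2 scale within the 2 sets of rats. The other arm of the same hairpin, miR-148a-5p, is listed for VAT, where it had 1054, 1177 and 1642 CPM, and is not listed for kidney. RefSeq places both arms at chr4:81664447-81664505, minus strand. miR-148b-3p and miR-152-3p carry the same seed. miR-152-3p, whose gene lies inside Copz2, is listed for VAT and not for kidney (618, 1056 and 1475 CPM). miR-148b-3p, inside Copz1, is listed for kidney and not for VAT (83.1, 482 and 6677 CPM), with no overlap between the 2 sets of kidney libraries. The 3 microRNAs of this seed thus stood in 3 different places: 1 raised in VAT, 1 in the VAT table alone and 1 in the kidney table alone.

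The miR-146 pair, which targets adaptor proteins of Toll-like receptor signalling, was divided between its members. miR-146b-5p had 2857, 4769 and 8749 CPM in VAT, against 608, 835 and 1240 CPM in kidney. The ranges did not overlap, and miR-146b-5p was 5.77-fold higher in VAT (log2 fold change 2.53, SE 0.19, edgeR adjusted p = 3.47e-08). miR-146a-5p differs from it by G18A and U21C (miR-146a base first, counted from the 5′ end) and by 2 further bases at the 3′ end of miR-146b. It had 383, 1346 and 2359 CPM in VAT, against 861, 1358 and 1999 CPM in kidney, and did not pass (log2 fold change -0.17, SE 0.28, edgeR adjusted p = 0.644). The ratio of miR-146b to miR-146a within a library was 2.13, 4.21 and 11.8 in VAT, against 0.358, 0.614 and 0.985 in kidney. There was no overlap: every VAT library held more miR-146b than miR-146a, and every kidney library held less. How the aligner assigned reads that fit both sequences is not given in the sources used here.

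Of the adipocyte and adipogenesis list, 8 of 19 were tested. miR-148a-3p, miR-146b-5p and miR-145-5p were higher in VAT, miR-26b-5p was lower, and miR-103-3p, miR-378a-3p, miR-26a-5p and miR-221-3p did not pass. That made 3 of 8 higher and 1 lower, against 29.4% higher and 27.5% lower among all 51. The list median was -0.07 against -0.08 for all 51. miR-378a-3p, which is made from an intron of the coactivator gene Ppargc1b, had 6832, 9399 and 17041 CPM in VAT, against 7374, 10497 and 14161 CPM in kidney. miR-103-3p, inside the gene Pank2, had 1109, 1951 and 2313 CPM in VAT, against 1212, 2293 and 2773 CPM in kidney. Both ranges lay largely on top of each other. miR-107-3p, which differs from miR-103-3p by G22C (miR-103 base first, counted from the 5′ end), is listed for kidney and not for VAT, and miR-130a-3p is listed for VAT and not for kidney.

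Of the endothelial list, 2 of 3 tested microRNAs were higher in VAT and miR-221-3p did not pass, against 29.4% higher among all 51. Of the stromal list 3 of 5 were higher and 2 lower, against 29.4% higher and 27.5% lower among all 51. miR-145-5p had 370, 949 and 4652 CPM in VAT, against 0, 149 and 540 CPM in kidney, with 1 kidney library at 0. It was higher in VAT in all 12 rats, the one at 0 in kidney counted among them, although the ranges overlapped (log2 fold change 2.79, SE 0.56, edgeR adjusted p = 0.000733). The difference was 2.07 in rats 3, 4, 6, 8, 9 and 10, where it did not pass (edgeR adjusted p = 0.0677), and 3.65 in the others. In the casein-fed rats alone it was 3.50 and in the egg-fed rats alone 2.44. miR-145-5p had the lowest median count of all microRNAs listed for kidney, 96.5. miR-126a is made from an intron of Egfl7, a gene of endothelium, and both of its arms were higher in VAT. miR-126a-3p had 824, 1826 and 2479 CPM in VAT, against 450, 567 and 1030 CPM in kidney (log2 fold change 1.38, SE 0.19, edgeR adjusted p = 2.25e-05). Its passenger arm miR-126a-5p had 375, 619 and 981 CPM in VAT, against 143, 284 and 506 CPM in kidney (log2 fold change 1.08, SE 0.29, edgeR adjusted p = 0.00434). Both arms were higher in all 12 rats, and the ratio of the 3p to the 5p arm had overlapping ranges, with a median of 2.89 in VAT and 2.61 in kidney.

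The other tested members of the stromal list were miR-195-5p and miR-199a-3p, higher in VAT, and miR-140-3p and miR-21-5p, lower in VAT. miR-195-5p, of the miR-16 seed family, had 344, 1088 and 2146 CPM in VAT, against 0, 244 and 560 CPM in kidney, where 2 libraries stood at 0. It was higher in VAT in 11 of 12 rats, the 2 at 0 in kidney counted among them (log2 fold change 2.56, SE 0.64, edgeR adjusted p = 0.00309). The value was 1.96 in the egg-fed rats alone and 3.67 in the casein-fed rats alone, and it passed in both. In VAT, miR-195-5p had 1376 to 2146 CPM in rats 1, 2, 3, 4, 5 and 8 and 344 to 799 CPM in the others. miR-16-5p, with the same seed, had 1156, 2461 and 5170 CPM in VAT, against 1427, 2277 and 3741 CPM in kidney, and did not pass. miR-199a-3p, inside the gene Dnm3, had 1130, 1978 and 3326 CPM in VAT, against 772, 1261 and 2061 CPM in kidney (log2 fold change 0.63, SE 0.20, edgeR adjusted p = 0.0125). Without scaling factors it no longer passed (0.37, adjusted p = 0.214). In VAT, miR-199a-3p had 2083 to 3326 CPM in rats 1, 2, 3, 4, 5 and 8 and 1130 to 1873 CPM in the others. On the lower side were miR-140-3p, a microRNA of cartilage and other mesenchyme made from an intron of Wwp2, and miR-21-5p, which is abundant in most tissues. miR-140-3p had 240, 551 and 1148 CPM in VAT, against 601, 1847 and 2760 CPM in kidney (log2 fold change -1.50, SE 0.31, edgeR adjusted p = 0.000862), and within rats 3, 4, 6, 8, 9 and 10 it was -0.67 and did not pass (adjusted p = 0.081), as in the casein-fed rats alone (-0.83, adjusted p = 0.0523). miR-21-5p had 6926, 12563 and 21156 CPM in VAT, against 16933, 19037 and 33917 CPM in kidney (log2 fold change -0.70, SE 0.15, edgeR adjusted p = 0.00136), and was lower in 11 of 12 rats.

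The miR-99, miR-100 and miR-125 families share ancestral clusters with let-7, and their tested members, miR-99b-5p and miR-125a-5p, were higher in VAT over the 12 rats. Of the list of 7 that holds these families and the miR-10 pair, 4 were tested. Of these, 3 were higher in VAT, against 29.4% higher among all 51, and miR-10a-5p did not pass. The median log2 fold change was 1.55 against -0.08 for all 51. miR-99a-5p, miR-100-5p and miR-125b-5p are listed for VAT and not for kidney, which gives no direction for them. miR-125a-5p had 2206, 4158 and 14409 CPM in VAT, against 523, 846 and 4721 CPM in kidney. It was higher in VAT in all 12 rats (log2 fold change 2.11, SE 0.24, edgeR adjusted p = 2.56e-06), and in both sets of rats (2.17 and 2.33). miR-351-5p, which has the same seed as miR-125a-5p, had 394, 1340 and 1988 CPM in VAT, against 487, 611 and 1107 CPM in kidney (log2 fold change 0.89, SE 0.21, edgeR adjusted p = 0.00229). miR-99b-5p had 1852, 3962 and 30758 CPM in VAT, against 178, 1352 and 11625 CPM in kidney, and passed over 12 rats (log2 fold change 2.29, SE 0.80, edgeR adjusted p = 0.0232). Its level in kidney was 2344 to 11625 CPM in rats 3, 4, 6, 8, 9 and 10 and 178 to 360 CPM in the others, and its log2 fold change was 0.35 (adjusted p = 0.446) in the first set and 4.72 (adjusted p = 0.000426) in the second. In VAT its level parted along the sides of the VAT libraries, which were drawn from counts that include it. It was 1852 to 3513 CPM in rats 1, 2, 3, 4, 5 and 8 and 4411 to 30758 CPM in the others. The call of miR-99b-5p was also lost without rat 1, 2, 5 or 7 (log2 fold change 1.94 to 2.64 over all rats left out in turn) and without the rat as a block (1.57, adjusted p = 0.0713), and it was 1.59 with limma-voom.

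miR-99b, let-7e and miR-125a are neighbours, and they did not go together. Their mature sequences lie within 643 bases inside the gene Spaca6 (miR-99b-5p at chr1:67350070-67350091, let-7e-5p at chr1:67350243-67350264 and miR-125a-5p at chr1:67350689-67350712, plus strand). let-7e-5p had 3754, 5604 and 8788 CPM in VAT, against 3277, 6316 and 10930 CPM in kidney, and did not pass, while both of its neighbours were higher in VAT. The ratio of miR-125a-5p to let-7e-5p was 0.268, 0.813 and 3.58 in VAT, against 0.0616, 0.163 and 1.16 in kidney, and was higher in VAT in 11 of 12 rats. In kidney the levels of let-7e-5p did not overlap between the sets either, but in the other direction from miR-99b-5p, with 3277 to 5222 CPM in rats 3, 4, 6, 8, 9 and 10 and 7409 to 10930 CPM in the others. Its difference was 0.65 in the first of these sets (edgeR adjusted p = 0.0398) and -0.46 in the second (adjusted p = 0.0383), so that let-7e-5p has no single direction over the 12 rats.

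The let-7 family, whose members hold back growth-promoting messengers and differ by few bases, held calls in both directions. Of 8 members tested, 3 were higher in VAT, 2 were lower and 3 did not pass, close to the 29.4% higher and 27.5% lower among all 51, and their median on the log2 scale was 0.09. let-7i-5p had 16380, 23294 and 31021 CPM in VAT, against 8263, 12747 and 17179 CPM in kidney. It was higher in VAT in all 12 rats, with a small overlap of the ranges (log2 fold change 0.97, SE 0.12, edgeR adjusted p = 9.67e-06). let-7g-5p, which differs from let-7i-5p by A17G and A19U (let-7g base first, counted from the 5′ end), had 6152, 12137 and 16547 CPM in VAT, against 14183, 16620 and 19920 CPM in kidney, and was lower in 11 of 12 rats (log2 fold change -0.54, SE 0.14, edgeR adjusted p = 0.00434). The ratio of let-7i to let-7g was 1.34, 2.11 and 3.05 in VAT, against 0.516, 0.695 and 1.07 in kidney, with no overlap. The call of let-7g-5p was lost within either set of rats, at -0.42 (adjusted p = 0.0635) and -0.36 (adjusted p = 0.0837).

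Among the other let-7 members, let-7c-5p was higher in VAT in all 12 rats (7639, 10967 and 15142 CPM, against 5521, 7660 and 10139 CPM in kidney, log2 fold change 0.52, SE 0.11, edgeR adjusted p = 0.000862), and did not pass without scaling factors (0.27, adjusted p = 0.118). let-7f-5p had 40812, 54910 and 97160 CPM in VAT, against 34146, 45635 and 57983 CPM in kidney. It passed narrowly (log2 fold change 0.36, SE 0.13, edgeR adjusted p = 0.0327) and lost its call without rat 1, 3, 4, 6, 7, 9 or 10 (0.28 to 0.51 over all rats left out in turn) with upper-quartile scaling, and without scaling factors (0.10, adjusted p = 0.556). miR-98-5p, of the same seed, was lower in VAT in 11 of 12 rats (2152, 2698 and 4626 CPM, against 2664, 6140 and 10781 CPM in kidney, log2 fold change -0.97, SE 0.23, edgeR adjusted p = 0.00227). It was -0.12 in rats 3, 4, 6, 8, 9 and 10 (adjusted p = 0.659) and -1.52 in the others. let-7a-5p, the member of highest median level in both tissues, had 32231, 56588 and 62798 CPM in VAT, against 23797, 48643 and 85932 CPM in kidney, and did not pass over 12 rats. Its kidney levels fell into the 2 sets with no overlap, 23797 to 32947 CPM in rats 3, 4, 6, 8, 9 and 10 and 64339 to 85932 CPM in the others. Within the sets, which were drawn from kidney counts that include let-7a-5p, the difference had opposite signs. It was 1.10 in the first (edgeR adjusted p = 0.000126) and -0.34 in the second (adjusted p = 0.0182). No single direction can be given for let-7a-5p either. Single bases part several of these microRNAs (let-7a to let-7c by A19G, let-7a to let-7f by G12A, let-7a base first), so that reads with a mismatch could be counted for either, and whether mismatches were allowed is not given in the sources used here.

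**Figure D3:**
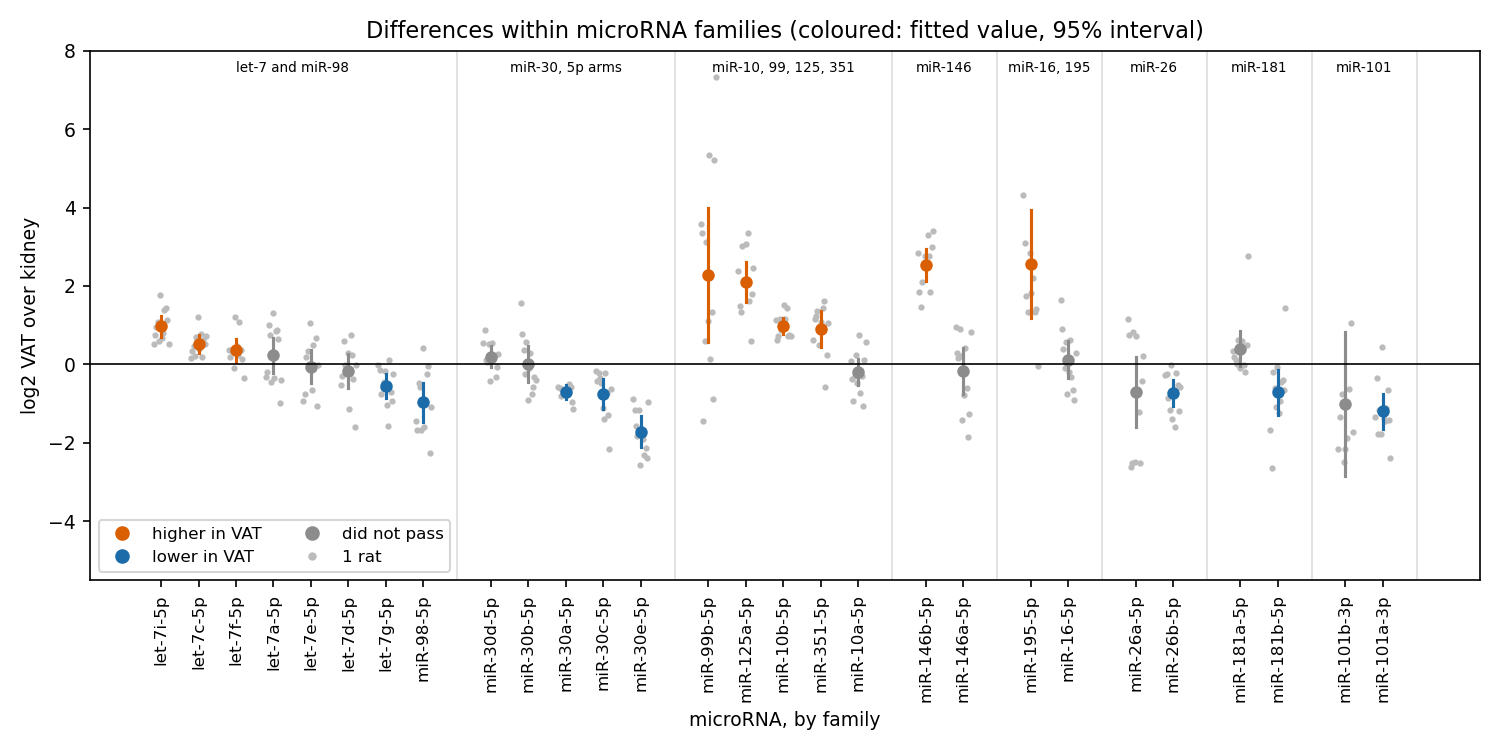
The log2 ratio of VAT over kidney (y axis) is plotted for the members of 8 families (x axis), each rat as a grey point and the fitted value with its 95% interval in colour; rats at 0 in either tissue have no grey point. Within the families, miR-146b-5p, miR-195-5p and let-7i-5p stand above 0 beside members of the same seed near or below it, and miR-30a-5p, miR-30c-5p and miR-30e-5p lie below 0 beside miR-30b-5p and miR-30d-5p near it.

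The miR-30 family, which is abundant in renal epithelium and podocytes, was lower in VAT or did not pass. Of 7 members tested, 5 were lower and 0 were higher, against 27.5% lower and 29.4% higher among all 51. The 7 include both arms of miR-30a and of miR-30e. Their median on the log2 scale was -0.76, against -0.08 for all 51. miR-30e-5p had 1198, 2294 and 3825 CPM in VAT, against 4518, 6824 and 10416 CPM in kidney, with no overlap (log2 fold change -1.72, SE 0.18, edgeR adjusted p = 1.35e-06). miR-30a-5p, the most abundant of the family, had 35039, 38827 and 46504 CPM in VAT, against 51391, 61614 and 78434 CPM in kidney, again with no overlap (log2 fold change -0.71, SE 0.09, edgeR adjusted p = 8.09e-06). The 2 differ by 1 base, C13U (miR-30a base first, counted from the 5′ end). miR-30c-5p had 1898, 3994 and 5737 CPM in VAT, against 4626, 5766 and 11236 CPM in kidney, and was lower in all 12 rats (log2 fold change -0.76, SE 0.18, edgeR adjusted p = 0.00234). It did not pass within rats 3, 4, 6, 8, 9 and 10 (-0.46, adjusted p = 0.123).

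miR-30d-5p and miR-30b-5p did not share this. miR-30d-5p had 7656, 9526 and 13095 CPM in VAT, against 5664, 9105 and 12593 CPM in kidney (log2 fold change 0.20, SE 0.12, edgeR adjusted p = 0.191), and miR-30b-5p had 718, 1183 and 2120 CPM in VAT, against 631, 1303 and 2149 CPM in kidney. Within a library, the ratio of miR-30a-5p to miR-30d-5p was 3.33, 3.94 and 5.00 in VAT, against 5.69, 7.38 and 10.8 in kidney, and that of miR-30e-5p to miR-30d-5p was 0.135, 0.213 and 0.413 in VAT, against 0.580, 0.789 and 1.08 in kidney. Neither ratio overlapped between the tissues. Of the opposite arms, miR-30e-3p and miR-30a-3p were lower and miR-30c-2-3p did not pass. miR-30e-3p had 366, 632 and 808 CPM in VAT, against 657, 1772 and 2971 CPM in kidney (log2 fold change -1.41, SE 0.25, edgeR adjusted p = 0.000256), but was -0.53 and did not pass (adjusted p = 0.0692) in rats 3, 4, 6, 8, 9 and 10. miR-30a-3p had 1366, 1766 and 2705 CPM in VAT, against 1771, 4069 and 7487 CPM in kidney (log2 fold change -0.97, SE 0.27, edgeR adjusted p = 0.00615). This call rests on rats 1, 2, 5, 7, 11 and 12, with -1.70 (adjusted p = 0.000426) there and 0.07 (adjusted p = 0.774) in the others. miR-30c-2-3p, which is not among the 7 listed members, had counts of 0 in 2 VAT libraries and 1 kidney library (log2 fold change -1.78, SE 0.82, edgeR adjusted p = 0.0804).

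In the miR-26 and miR-101 families one member passed and the other did not, with fitted values close to each other. miR-26b-5p had 2791, 4539 and 6539 CPM in VAT, against 4679, 7133 and 10306 CPM in kidney, and was lower in all 12 rats (log2 fold change -0.73, SE 0.16, edgeR adjusted p = 0.00128). miR-26a-5p, with the same seed and one of the most abundant microRNAs of both tissues, had 25330, 37673 and 48427 CPM in VAT, against 17492, 49617 and 247258 CPM in kidney, and did not pass over 12 rats (log2 fold change -0.71, SE 0.42, edgeR adjusted p = 0.173). Its kidney level was 65149 to 247258 CPM in rats 3, 4, 6, 8, 9 and 10 and 17492 to 34085 CPM in the others. The log2 fold change was accordingly -1.83 in the first set (adjusted p = 0.00212) and 0.65 in the second (adjusted p = 0.0146), so that no single direction can be given for miR-26a-5p. The log2 ratio of miR-26b to miR-26a was higher in VAT in 5 rats and lower in 7. Without the rat as a block miR-26a-5p passed over 12 rats (-1.41, edgeR adjusted p = 0.00535).

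miR-101a-3p had 710, 1134 and 2101 CPM in VAT, against 918, 2517 and 5616 CPM in kidney (log2 fold change -1.20, SE 0.21, edgeR adjusted p = 0.000256), and was lower in 11 of 12 rats, but it missed the threshold in rats 3, 4, 6, 8, 9 and 10 (-0.77, adjusted p = 0.0576). miR-101b-3p, which differs from it by A16G (miR-101a base first, counted from the 5′ end), did not pass (log2 fold change -1.01, SE 0.86, edgeR adjusted p = 0.339) and had counts of 0 in both tissues. miR-181b-5p had 399, 943 and 5313 CPM in VAT, against 1189, 1837 and 2511 CPM in kidney (log2 fold change -0.72, SE 0.27, edgeR adjusted p = 0.0338). The highest VAT value was again that of rat 12 and the next 1469 CPM. The call of miR-181b-5p was lost without rat 1, 2, 4, 5, 7 or 8 (-0.81 to -0.49 over all rats left out in turn) and without the rat as a block (-0.48, adjusted p = 0.181). Its cluster partner miR-181a-5p had 5558, 6841 and 32751 CPM in VAT, against 4520, 6048 and 7289 CPM in kidney, and did not pass (log2 fold change 0.40, SE 0.21, edgeR adjusted p = 0.126; 0.62 and adjusted p = 0.0238 without the block). The ratio of miR-181b to miR-181a was lower in VAT in 11 of 12 rats, with medians of 0.150 in VAT and 0.332 in kidney.

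Of the polycistrons related to miR-17 to miR-92, which are known as regulators of proliferation, few members are listed: 4 of 11 were tested in a list that also holds miR-191a-5p. miR-93-5p, inside the replication gene Mcm7, had 181.3, 350 and 641 CPM in VAT, against 346, 610 and 955 CPM in kidney (log2 fold change -0.73, SE 0.25, edgeR adjusted p = 0.0232), and lost its call without rat 2, 5, 7 or 8 (-0.82 to -0.61 over all rats left out in turn). miR-25-3p, 265 bases from end to end with miR-93-5p in the same gene, had 1229, 1560 and 2096 CPM in VAT, against 741, 1948 and 2631 CPM in kidney, and did not pass. miR-92a-3p did not pass either. miR-191a-5p, inside the gene Dalrd3, had 3555, 5354 and 15186 CPM in VAT, against 1360, 2605 and 9487 CPM in kidney (log2 fold change 1.08, SE 0.25, edgeR adjusted p = 0.00169). It was 0.58 in rats 3, 4, 6, 8, 9 and 10 (adjusted p = 0.0507) and 1.89 in the others.

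Across the 2 sets of rats, 16 of the 29 calls stood in rats 3, 4, 6, 8, 9 and 10 alone (15 microRNAs higher and 7 lower in VAT there) and 24 of the 29 in rats 1, 2, 5, 7, 11 and 12 alone (17 higher and 16 lower). The calls of miR-126a-5p (0.82, edgeR adjusted p = 0.0504), miR-93-5p and miR-181b-5p were also lost in the first of these sets, and those of miR-26b-5p (-0.39, adjusted p = 0.0689), miR-199a-3p (0.41, adjusted p = 0.0948), let-7f-5p and miR-181b-5p in the second. Kidney levels of miR-99b-5p, miR-26a-5p, let-7a-5p and miR-30a-3p did not overlap between the sets. The kidney level of miR-30a-3p was 1771 to 2774 CPM in the first set and 5363 to 7487 CPM in the second. MicroRNAs that did not pass over 12 rats passed within a set: miR-10a-5p, miR-26a-5p, let-7a-5p, let-7e-5p, miR-122-5p and miR-203b-3p (1.10, adjusted p = 0.00285) in the first, and miR-26a-5p, let-7a-5p, let-7e-5p, miR-9a-5p, miR-30d-5p (0.55, adjusted p = 0.0107), miR-181a-5p (0.88, adjusted p = 0.0383), miR-25-3p (-0.53, adjusted p = 0.0464), miR-101b-3p (-2.21, adjusted p = 0.013) and miR-30c-2-3p (-3.00, adjusted p = 0.039) in the second. The neural miR-9a-5p had 1190 to 4794 CPM in the kidney of the first set and 436 to 627 CPM in that of the second. What the sets are was not tested, and since they were drawn from the kidney counts, a pass within a set is descriptive. In the 6 egg-fed rats alone 18 of the 29 calls stood, and in the 6 casein-fed rats alone 20. The calls of miR-21-5p, miR-30c-5p, miR-351-5p, miR-126a-5p and let-7f-5p were lost in the egg-fed rats, those of miR-199a-3p, miR-98-5p and miR-140-3p in the casein-fed rats, and those of let-7g-5p, miR-26b-5p, miR-30a-3p, miR-99b-5p, miR-181b-5p and miR-93-5p in both. In all, 7 microRNAs higher in VAT and 3 lower kept their call in each of 26 refits with other scalings, tools, filters, diets, sets or with a rat left out: miR-10b-5p, let-7i-5p, miR-148a-3p, miR-125a-5p, miR-146b-5p, miR-126a-3p and miR-195-5p above, and miR-192-5p, miR-30a-5p and miR-30e-5p below. The refits with other filters kept all tested microRNAs and so repeated the main fit. None of the refits was made within the sides of the VAT libraries.

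**Figure D4:**
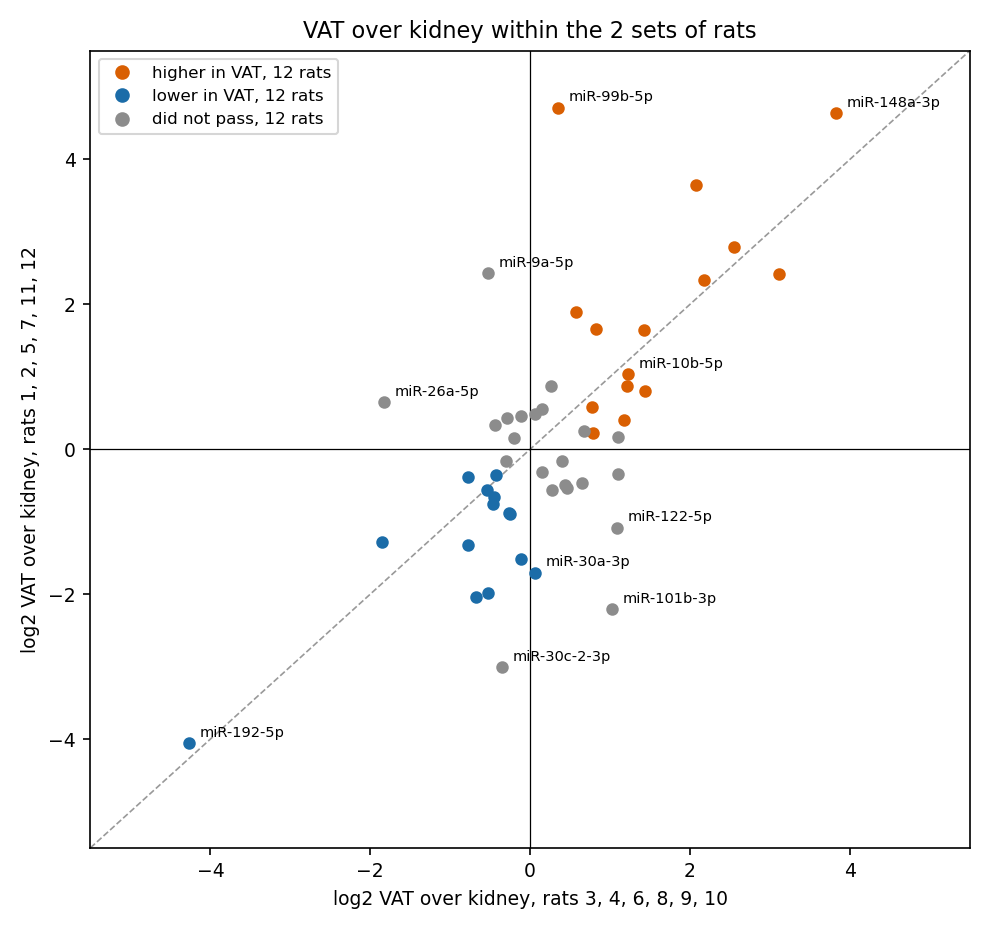
The log2 fold change of VAT over kidney in rats 1, 2, 5, 7, 11 and 12 (y axis) is plotted against that in rats 3, 4, 6, 8, 9 and 10 (x axis) for 51 microRNAs, coloured by their call over all 12 rats, with a dashed line where both are equal. miR-148a-3p, miR-10b-5p and miR-192-5p lie near the line, while miR-99b-5p lies at 0.35 and 4.72 and miR-26a-5p at -1.83 and 0.65.

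The microRNAs listed in one of these tables alone made up little of the counts, since the 51 shared microRNAs took 90.6% to 98.5% of the listed counts in VAT and 98% to 99.6% in kidney. A microRNA missing from a table is not one measured at 0, and no fold is given for it. The most abundant of the 13 in the VAT table were miR-99a-5p, with 1353, 8330 and 45461 CPM, miR-486, with 1015, 5177 and 15583 CPM, and miR-100-5p, with 546, 5291 and 27162 CPM. Both miR-99a-5p and miR-100-5p spread widely over the 12 rats, and like miR-99b-5p they were highest in rat 12. They also parted without overlap between the sides of the VAT libraries given above, which were drawn from counts that include them. In rats 1, 2, 3, 4, 5 and 8 miR-99a-5p had 1353 to 5437 CPM and miR-100-5p 546 to 3702 CPM. In the others they had 11222 to 45461 CPM and 6881 to 27162 CPM. miR-125b-5p had 344, 1297 and 4313 CPM. After miR-148a-5p and miR-152-3p, given above, came the epidermal microRNA miR-203a-3p (median 710 CPM), the p53 target miR-34a-5p (661 CPM), miR-125b-2-3p (372 CPM), miR-127-3p (313 CPM), miR-1b (270 CPM), miR-532-5p (231 CPM) and miR-130a-3p (198 CPM). miR-127-3p, an imprinted microRNA in the gene Rtl1, reached 17154 CPM in rat 12 and at most 644 CPM in any other rat. Its highest share of the listed VAT counts was 1.69%, against a median of 2.62% in the prefrontal cortex table. Of the 13, 8 are also listed in the prefrontal cortex table and 4 in the liver table.

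Of the 7 in the kidney table, miR-182 was the most abundant, with 968, 2604 and 7718 CPM. miR-196b-5p, of the Hox clusters like miR-10, had 818, 2269 and 4803 CPM, and its range was 818 to 1632 CPM in rats 3, 4, 6, 8, 9 and 10 and 2905 to 4803 CPM in the others. miR-200a-3p, which with miR-200b-3p holds down repressors of E-cadherin in epithelium, had 696, 1385 and 1841 CPM, and miR-200b-3p had 0, 414 and 618 CPM with 2 libraries at 0. miR-107-3p had 315, 719 and 1275 CPM. Of the 7, 4 are also listed in the prefrontal cortex table and 3 in the liver table.

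**Figure D5:**
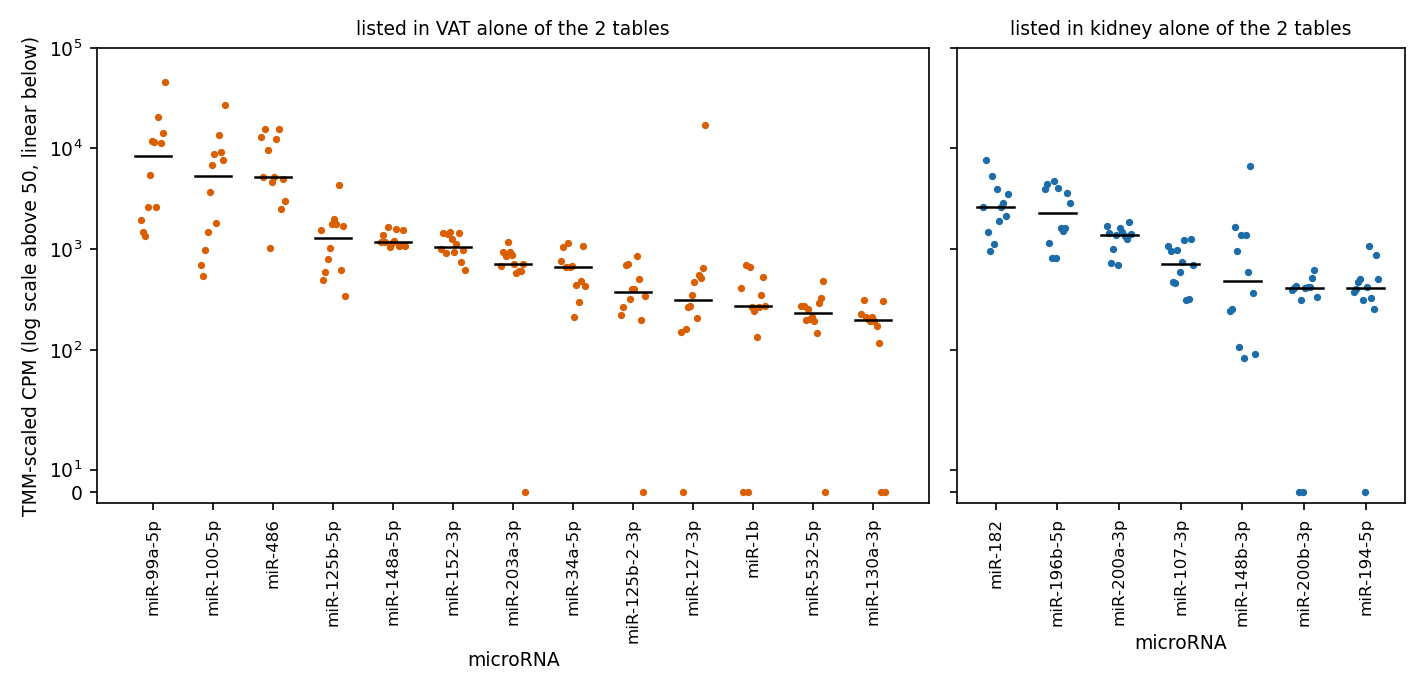
TMM-scaled CPM (y axis, log scale above 50 and linear below) is plotted for each rat (points) with the median (bar), for the 13 microRNAs listed for VAT and not for kidney on the left and the 7 listed for kidney and not for VAT on the right. miR-99a-5p leads on the left with a median of 8330 CPM and miR-182 on the right with 2604 CPM, and 1 or 2 rats at 0 stand at the foot of 8 of the lesser ones.

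miR-122-5p and miR-9a-5p, marker microRNAs of liver and brain, did not pass over the 12 rats and differed between the sets. miR-122-5p had 929, 2778 and 16994 CPM in VAT, against 881, 2171 and 34825 CPM in kidney. In kidney, rats 1, 7 and 12 held 15387, 10853 and 18078 counts of it and no other rat more than 1771. Its log2 fold change was 1.09 in rats 3, 4, 6, 8, 9 and 10 (edgeR adjusted p = 0.0398) and -1.08 in the others (adjusted p = 0.0716). miR-9a-5p had 776, 1700 and 18551 CPM in VAT, against 436, 909 and 4794 CPM in kidney, and the highest VAT value was that of rat 12, with 4408 CPM in the next. Its log2 fold change was -0.53 in the first set (edgeR adjusted p = 0.315) and 2.43 in the second (adjusted p = 0.00972). The part of these microRNAs in the differences given above was not tested. The calls of miR-192-5p, miR-148a-3p, miR-146b-5p and miR-10b-5p all stood without rat 12.

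The difference between VAT and kidney did not depend detectably on the diet. The interaction of tissue and diet passed for 0 of 51 microRNAs, with 0 at an unadjusted p under 0.05 and a smallest adjusted p of 0.938 (edgeR), and limma-voom gave 0 and 1. Within the 6 egg-fed rats 11 microRNAs were higher in VAT and 7 lower, and within the 6 casein-fed rats 14 were higher and 7 lower.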

How the data were processed

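Small RNA libraries of VAT and kidney from 12 rats were made with Lexogen kits and sequenced on an Illumina HiSeq. The authors used FastQC for read quality, BBDUK for trimming and Bowtie through smallrnaseq for alignment against RNAcentral references, and deposited raw counts per microRNA, 1 table a tissue. Versions, mismatch settings and the rule by which a table lists a microRNA are not given in the sources used here (a minimum of 10 counts is stated for genes). The deposited tables of egg-fed against casein-fed rats (mean, log2 fold change, p-value) were not used.

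Columns were joined to samples by tissue and animal number, and 0 were left unassigned. Diet was read from column headings, as the labels give none. MicroRNAs listed in both tables with at least 10 counts in 12 of 24 libraries were kept (all 51). TMM factors set the scale, and glmQLFTest (edgeR's quasi-likelihood test, edgeR 4.0.16 in R 4.3.3, limma 3.58.1, DESeq2 1.42.0) was run with the rat as a block, since same-numbered libraries come from 1 animal, and BH adjustment. Over the microRNAs, deviations from the tissue means correlated between libraries of 1 rat by a median of -0.03 (-0.28 to 0.54, over 0.1 in 4 of 12 rats). Library size is the sum of the listed counts, so CPM and shares are relative to listed microRNAs; full depth is unknown. Counts were compared between rats for repeated libraries, and none was found. Scripts were tested on simulated data.

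Named microRNAs are the 3 chosen markers (miR-10b-5p, miR-10a-5p, miR-192-5p), the 10 of largest difference each way, the 10 most abundant a tissue, up to 6 listed in 1 table alone and members of 18 lists, and others are named to complete a count, after their values were seen. Members and lists were chosen with earlier results of these data known, and the 12 pairs for ratios after seeing the values. Alternatives were other scalings, tools, filters, thresholds, diets, no block, each rat left out and, added after seeing the data, the 2 sets of rats and counts of 0 as missing. Figures used matplotlib 3.10.9 in Python 3.11.15.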

Additional observations from a re-analysis of the deposited data

How the results depend on the processing

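The direction of all 29 calls was kept in every refit with 1 exception, miR-30a-3p, at 0.067 on the log2 scale in rats 3, 4, 6, 8, 9 and 10. With each rat left out in turn, 13 to 16 microRNAs were higher in VAT and 12 to 15 lower, and the interaction with diet stayed at 0. The counts changed most with fewer rats or a stricter test: 7 lower in the egg-fed rats alone, 7 in the casein-fed rats alone and 7 in rats 3, 4, 6, 8, 9 and 10, and 5 higher and 2 lower when tested against a log2 difference of 1 (glmTreat in edgeR). Without the rat as a block, 15 were higher and 16 lower and the interaction gave 0. Of the 29 calls 27 stood without it, the others being miR-99b-5p and miR-181b-5p, and it took the calls of miR-26a-5p, miR-101b-3p, miR-30c-2-3p and miR-181a-5p away. Without scaling factors 12 were higher and 17 lower, DESeq2 gave 16 and 15, limma-voom 15 and 17 (16 and 18 with counts of 0 as missing), and an adjusted p under 0.01 gave 12 and 12. Among the 22 microRNAs that did not pass, signs turned as follows. In rats 3, 4, 6, 8, 9 and 10 the log2 fold change was 1.03 for miR-101b-3p, 0.28 for miR-320-3p, 0.46 for miR-25-3p, 0.44 for let-7d-5p, 1.09 for miR-122-5p, 0.40 for miR-221-3p, 0.65 for let-7e-5p, 0.155 for miR-103-3p, -0.12 for miR-30b-5p and -0.53 for miR-9a-5p. In rats 1, 2, 5, 7, 11 and 12 it was 0.65 for miR-26a-5p, 0.34 for miR-10a-5p, 0.43 for miR-378a-3p, 0.15 for miR-146a-5p and -0.34 for let-7a-5p. In the egg-fed rats it was 0.105 for let-7d-5p, 0.37 for miR-122-5p, 0.010 for miR-378a-3p, 0.71 for miR-221-3p, 0.25 for let-7e-5p, 0.30 for miR-146a-5p and -0.079 for miR-203b-3p, and in the casein-fed rats 0.081 for miR-25-3p and 0.050 for miR-378a-3p. Without scaling factors it was -0.24 for miR-30b-5p, -0.135 for miR-16-5p, -0.030 for let-7a-5p and -0.059 for miR-30d-5p. miR-221-3p gave 0.054 without the block, 0.039 with DESeq2 size factors and 0.043 with DESeq2, let-7e-5p 0.025 and 0.023 with the last 2, and miR-146a-5p 0.028 with limma-voom and again with counts of 0 as missing. With each rat left out, values ran from -0.32 to 0.11 for miR-122-5p, -0.33 to 0.082 for miR-221-3p, -0.16 to 0.065 for let-7e-5p, -0.12 to 0.14 for miR-30b-5p, -0.014 to 0.21 for miR-16-5p and -0.0058 to 0.48 for miR-92a-3p. The p-values measure the spread between 12 rats with 1 library per tissue. Differences of the least abundant microRNAs rest on few counts, and those listed in 1 table alone could not be compared.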
